A study of Mus musculus with 10 samples.

Results

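Wild-type (WT) bone marrow derived macrophages were compared after 6 h in a control medium and without any treatment, which are 4 of the 10 libraries of the series. The members were chosen by their sample titles: WT control replicates 1 and 2, set against WT untreated replicates 1 and 2. WT control cells came from C57BL/6 mice and were collected after 6 h of pre-treatment in medium that held 5% FBS (fetal bovine serum) and 2% BSA (bovine serum albumin). WT untreated cells came from the same strain, and neither their medium nor their time in culture is given in the labels, so the difference measured here is that between the control medium and whatever the untreated cells were kept in. The other 6 libraries are Tlr4 -/- (KO) cells of the same strain: KO control (the same medium for 6 h), KO PolyIC (pre-treated with medium containing Poly(I:C), which mimics viral double-stranded RNA, for a time that is not given) and KO untreated. They entered the fit and 2 comparisons at the end. The series asks how loss of TLR4, the receptor for bacterial lipopolysaccharide, bears on inflammatory signalling and lipid metabolism. The ages of the mice, the number of animals and whether the samples of a group were separate cultures are not given in the labels, so the spread that the p-values rest on may be technical.

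Macrophages carry receptors for microbial products at the surface, in endosomes and in the cytosol. Most of these receptors signal through the kinases that release NF-kB from its inhibitors and through those that activate interferon regulatory factors. NF-kB drives chemokine and cytokine genes within hours, interferon regulatory factors drive type I interferon, and secreted interferon acts back through JAK kinases and STAT proteins on a large set of antiviral genes. Macrophages grown from marrow also divide in culture, and division is known to slow in cells activated in this way.

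Deposited library totals were 41950344 and 41102369 units in WT control, 26020591 and 25478689 units in WT untreated, and from 25218442 to 51679463 units over the series. The values were treated as scaled and rounded rather than as raw counts, and they are given below as CPM, the value per 1000000 units of the scaled library total. Replicates correlated across genes at 0.993 (WT control) and 0.992 (WT untreated) on the log2 scale, and their median absolute log2 gap was 0.143 and 0.166. On the first principal component of all 10 libraries, which held 83.4% of their variance, the WT control libraries lay at 71.7 and 79.2 and the WT untreated libraries at −66.0 and −59.2. KO PolyIC lay at 102.8 and 105.5, KO control at −50.5 and −47.3 and KO untreated at −69.2 and −67.0. The component is thus not that of the WT comparison alone. Markers of macrophages were present in all 4 libraries: Csf1r, the M-CSF receptor, had 1695 and 1751 CPM in WT control and 1355 and 1392 CPM in WT untreated, and Adgre1, which encodes F4/80, had 4348 and 4109 CPM in WT control and 2894 and 2902 CPM in WT untreated. Tlr4 had 32.3 and 38.95 CPM in WT control and 60.1 and 69.1 CPM in WT untreated. It also had 30.8 and 34.6 CPM in KO control, 47.9 and 63.4 CPM in KO PolyIC and 44.4 and 44.9 CPM in KO untreated, so its summed level does not tell the genotype labels apart. One value per gene does not show which exons were read, and the genotypes are used here as labelled.

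The transcriptome of WT cells differed broadly between the control medium and no treatment. Of 13171 genes tested, 4357 were higher in WT control (33.1%) and 4315 were lower (32.8%) at an adjusted p under 0.05, 8672 (65.8%) in all (limma with a trend on log2(CPM + 0.1), Benjamini-Hochberg adjustment), and 4499 did not pass. Of those called, 1936 were higher by 1 log2 unit or more and 1996 lower by as much, but 331 were higher by 3 or more and 82 lower by as much, and 73 were higher by 5 or more against 3 lower. The steep end of the response lay therefore among the genes that rose. Both WT control libraries lay above both WT untreated libraries in 40.9% of the tested genes and below both in 41.3%. The rlog table gave the same sign for all 8672 called genes. The genes called higher held 67.1% and 67.7% of the WT control totals and 43.9% and 44.3% of the WT untreated totals. The genes called lower held 9.25% and 8.90% of the WT control totals and 21.8% and 21.1% of the WT untreated totals. Because so much of the total moved, the split depends on the scaling: with totals alone it was 2267 higher and 7689 lower, where the median over all genes was −0.52, and with the deposited scaling 5158 higher and 3426 lower, with that median at 0.14, against −0.01 here. Differences are given relative to that last median, and list counts that move by more than 1.5 times with totals alone are given where the list is described. Each list count below is to be read beside the 33.1% higher and 32.8% lower of all genes tested. Log2 differences are on the scale of CPM plus 0.1 and understate the change of genes near 0. In bulk RNA, fewer cells of a type and less RNA per cell cannot be told apart.

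**Figure D1:**
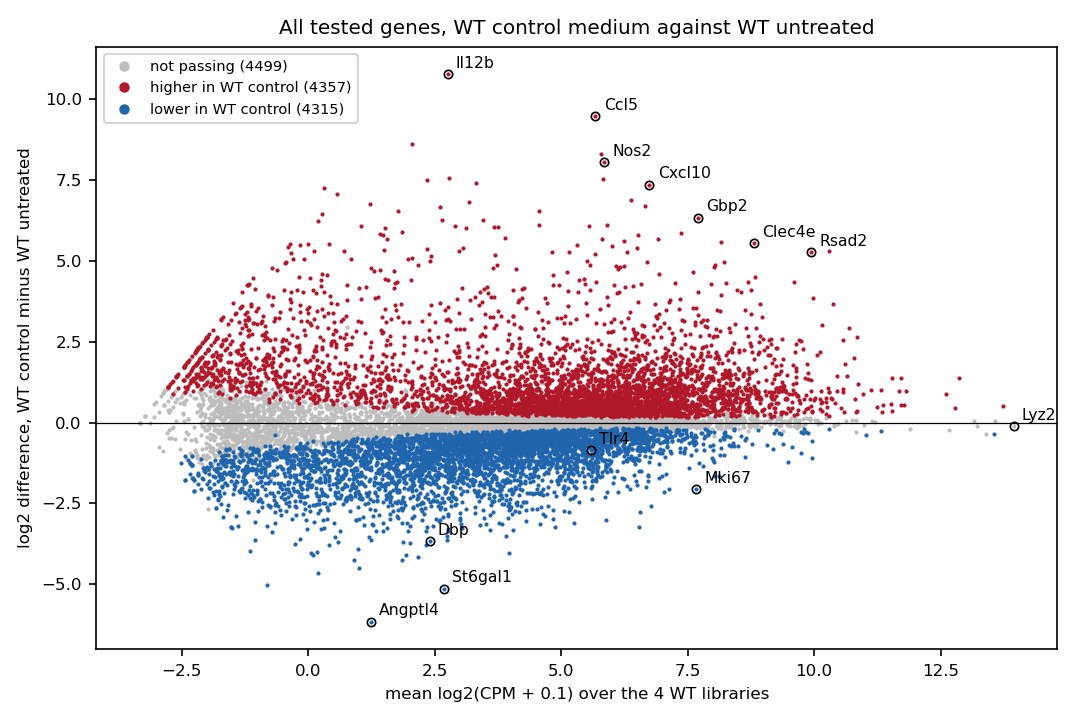
Each point is 1 of the 13171 tested genes, with its mean log2(CPM + 0.1) over the 4 WT libraries on the x axis and its log2 difference, WT control minus WT untreated, on the y axis. Red points passed the test as higher in WT control (4357), blue points as lower (4315) and grey points did not pass (4499); the largest differences lie on the upper side, with Il12b at 10.77 and Angptl4 at −6.16.

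Among the 20 called genes with the steepest differences in each direction that averaged 10 CPM or more in WT control or WT untreated, predicted models and pseudogenes left out, those that rose were mostly cytokines and interferon-induced genes, which are described with their families, and those that fell were spread over lipid handling, actin, translation and cell division. Ptgs2, the inducible cyclooxygenase, had 859.7 and 695 CPM in WT control and 3.54 and 4.73 CPM in WT untreated (log2 7.53, SE 0.16, limma adjusted p = 5.43e-10). Ch25h, which makes 25-hydroxycholesterol, had 59.2 and 63.7 CPM in WT control and 0.626 and 0.397 CPM in WT untreated (log2 6.68). Mir155hg, the host transcript of miR-155, had 22.9 and 25.6 CPM in WT control and 0.157 and 0.0993 CPM in WT untreated (log2 6.75), and Lipg, the endothelial lipase, rose by 6.45. On the other side Eps8, which caps and bundles actin, fell to 0.447 and 1.16 CPM in WT control, against 14.2 and 17.2 CPM in WT untreated (log2 −4.24). Abcd2, a peroxisomal importer of very long-chain fatty acids, had 0.839 and 0.986 CPM in WT control and 12.8 and 13.3 CPM in WT untreated (log2 −3.71). Eef2k, the kinase that halts translation elongation, fell by 3.62, and the DNA glycosylase Neil3 (−3.36), the spindle protein Aspm (−3.36) and the mitotic phosphatase Cdc25b (−3.31) fell too. In each of these genes both libraries of a group lay on the same side of the other group, which follows largely from their choice. The groups lay wholly apart in 40.9% of all tested genes as higher and in 41.3% as lower. Of the others, Zdhhc14 (−4.15), Kctd12b (−4.09), Rnf150 (−4.04), Tmem154 (−3.49), Tbc1d31 (−3.49), Fam117a (−3.36), Sh3pxd2a (−3.31), Zfp395 (−3.30) and Cdca7l (−3.26) fell as well.

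Genes of microbial sensing were mostly higher in WT control. Of 18 tested Toll-like receptors and lipopolysaccharide co-receptors, 12 rose, 4 fell and 2 did not pass (median log2 difference 0.91). Tlr3, the endosomal receptor for double-stranded RNA, had 88.8 and 106 CPM in WT control and 11.4 and 11.3 CPM in WT untreated (log2 3.08, SE 0.11, limma adjusted p = 1.36e-08). Tlr4 moved the other way, at the levels given above (log2 −0.86, SE 0.14, limma adjusted p = 0.000376), and so did Tlr5, the flagellin receptor, which was near 0 in WT control (0.0839 and 0.179 CPM) and low in WT untreated (3.76 and 2.35 CPM). Tlr2 (0.97) rose together with Tlr1 (1.71) and Tlr6 (0.93), each of which pairs with TLR2 to read bacterial lipopeptides. Tlr7 (1.39), a receptor for single-stranded RNA, rose as well. Cd14, which hands lipopolysaccharide to TLR4, stood at 1075 and 1023 CPM in WT control and 161 and 166 CPM in WT untreated (log2 2.68), and its partner Ly96 rose by 1.01. Tlr9, a DNA receptor (log2 0.23), and the chaperone Hsp90b1 (0.08) did not pass.

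The signalling proteins behind these receptors rose in 21 of 27 cases, fell in 4 and did not pass in 2 (median 0.61), against 11 higher and 8 lower with totals alone. Traf1, which joins TNF receptor complexes, had the steepest difference, with 389.8 and 469 CPM in WT control and 8.64 and 10.6 CPM in WT untreated (log2 5.47). Myd88, the adaptor of most Toll-like receptors, rose by 2.15, and the kinases Irak2 (1.92), Ikbke (1.37) and Tbk1 (1.20) rose as well, the last pair being the kinases that activate IRF3. The proximal kinase Irak4 fell by little (−0.31) and Tab1 by more (−0.81), and Map3k7, which encodes TAK1, did not pass (0.03). All 16 cytosolic nucleic acid sensors and their partners were called, 14 of them higher (median 2.04). Ifih1, which encodes the RNA sensor MDA5, had 607 and 736 CPM in WT control and 62.1 and 70.04 CPM in WT untreated (log2 3.34). Zbp1, a sensor of left-handed nucleic acid, differed by 3.78, the exonuclease Trex1 by 3.24 and the peptidoglycan sensor Nod2 by 3.18. Mavs, the mitochondrial adaptor on which MDA5 and RIG-I converge, was lower, with 32.1 and 31.6 CPM in WT control and 64.6 and 65.6 CPM in WT untreated (log2 −1.03).

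Genes for NF-kB and its inhibitors rose almost without exception: 11 of 12 were higher and Nkrf, a repressing factor, did not pass (0.27; list median 1.98). The subunit Nfkb2 had 313 and 377 CPM in WT control and 39.03 and 50.6 CPM in WT untreated (log2 2.95). Nfkbia, which encodes the inhibitor IkB-alpha, had 697 and 788 CPM in WT control and 130.5 and 171 CPM in WT untreated (log2 2.31). Subunits and inhibitors thus moved the same way, with Nfkbie, another inhibitor, at the top of the list (3.60). Of 31 genes that restrain inflammatory signals or destabilise cytokine mRNA, 23 rose and 6 fell (median 1.20). Il1rn, the natural antagonist of the IL-1 receptor, had 1549 and 1489.6 CPM in WT control and 89.8 and 96.8 CPM in WT untreated (log2 4.02). The ubiquitin editor Tnfaip3 (A20, 3.53), the suppressors of cytokine signalling Socs3 (3.18) and Socs1 (3.11), and the mRNA-binding protein Zfp36 (2.38) rose. The relatives of the last gene, Zfp36l1 (−1.78) and Zfp36l2 (−1.33), fell. Tnfaip8l2, a brake on Toll-like receptor signalling, did not pass, with 59.2 and 62.4 CPM in WT control and 57.1 and 64.9 CPM in WT untreated.

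Among 18 interferon regulatory factors, STATs and partners, 12 rose, 2 fell and 4 did not pass (median 0.74), against 9 higher and 5 lower with totals alone. Irf7, the amplifier of the interferon response, had 1651 and 2097 CPM in WT control and 73.3 and 113 CPM in WT untreated (log2 4.35, SE 0.20, limma adjusted p = 5.31e-08). Stat2 (2.25), a signal carrier of interferon receptors, rose, while Irf3, whose protein is present before stimulation, had 26.1 and 30.7 CPM in WT control and 28.4 and 29.7 CPM in WT untreated and did not pass (−0.04). Stat6, the factor of the IL-4 response, did not pass either (0.12). In the AP-1 family and its relatives 14 of 25 rose and 4 fell (median 0.34), against 9 higher and 10 lower with totals alone. Fosl1 (3.88), Maff (3.64) and Junb (2.37) led. The count of 4 lower was 2 without WT untreated replicate 2. Of 15 dual-specificity phosphatases, which switch off MAP kinases, 9 rose and 3 fell (8 and 6 with totals alone), led by Dusp2 (3.80), Dusp16 (3.10) and Dusp1 (2.92).

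Secreted signals gave some of the steepest differences. Of 13 tested CC chemokines, 10 rose and 2 fell (median 3.49), and of 13 CXC chemokines and their CX3C relative, 8 rose, 1 fell (3 with totals alone) and 4 did not pass (median 1.94). Ccl5 had 1210.4 and 1533 CPM in WT control and 1.32 and 2.51 CPM in WT untreated (log2 9.47). Cxcl10, which calls activated T cells through CXCR3, had 1210.5 and 1561 CPM in WT control and 8.77 and 7.78 CPM in WT untreated (log2 7.36, SE 0.17, limma adjusted p = 7.59e-10). Cxcl2, a neutrophil attractant, had 212 and 179.7 CPM in WT control and 7.61 and 12.9 CPM in WT untreated (log2 4.29). In none of these 3 genes did the groups come near each other, which follows in part from naming members with large differences. The third CXCR3 ligand, Cxcl11, had 11.6 and 19.7 CPM in WT control and was listed at 0 in both WT untreated libraries. The monocyte attractants Ccl12 (5.66), Ccl7 (4.32) and Ccl2 (3.49) rose with them. Chemokines that resting macrophages make did not follow: Ccl6 (−0.69) and Ppbp (−1.26) fell, and platelet factor 4, Pf4, with 284 and 340.1 CPM in WT control and 319 and 370.4 CPM in WT untreated, did not pass (−0.15). Ppbp was unlike in the replicates of both groups, at 27.7 and 58.1 CPM in WT control and 61.3 and 151 CPM in WT untreated, and its call was lost without WT control replicate 1 (limma adjusted p = 0.153) or WT untreated replicate 2 (limma adjusted p = 0.146).

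The promoters of Cxcl10 and Cxcl2 are shown because both genes rose and their promoters hold the letters that NF-kB binds. Being picked in this way, they do not stand for the chemokines as a whole. The sequences are RefSeq promoters of GRCm38.p6, from 250 bases before the start site to 50 bases from it, read on the gene's own strand: Cxcl10 at chr5:92348840-92349139 on the minus strand and Cxcl2 at chr5:90903649-90903948 on the plus strand. Capitals mark matches on either strand to an NF-kB motif (GGG and TTCC with any 3 bases between them) or to an interferon-stimulated response element (TTTC and TTTC with any 2 bases between them).
Cxcl10: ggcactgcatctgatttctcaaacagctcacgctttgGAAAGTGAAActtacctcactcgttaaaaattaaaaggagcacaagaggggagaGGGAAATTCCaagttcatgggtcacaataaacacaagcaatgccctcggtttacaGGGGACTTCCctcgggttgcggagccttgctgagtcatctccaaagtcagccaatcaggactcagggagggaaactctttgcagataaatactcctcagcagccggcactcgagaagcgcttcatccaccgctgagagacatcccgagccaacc
Cxcl2: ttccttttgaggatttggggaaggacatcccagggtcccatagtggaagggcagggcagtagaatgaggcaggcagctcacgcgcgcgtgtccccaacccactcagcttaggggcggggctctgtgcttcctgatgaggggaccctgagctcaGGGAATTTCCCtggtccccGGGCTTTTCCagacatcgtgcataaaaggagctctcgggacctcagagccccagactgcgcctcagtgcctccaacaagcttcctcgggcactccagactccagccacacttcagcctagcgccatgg
The Cxcl10 promoter held 2 matches to the NF-kB motif, starting at positions −159 and −104 relative to the start site, and 1 match to the response element at −213. The Cxcl2 promoter held 3 matches to the NF-kB motif, of which 2 overlap each other on opposite strands, and none to the response element. Of 32851 promoters in the RefSeq table, 5.56% held the NF-kB motif and 3.44% held the response element. Among the 13 chemokine genes of the CXC list with a promoter there, 4 held the NF-kB motif. A match is a run of letters and not a measured site.

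**Figure D2:**
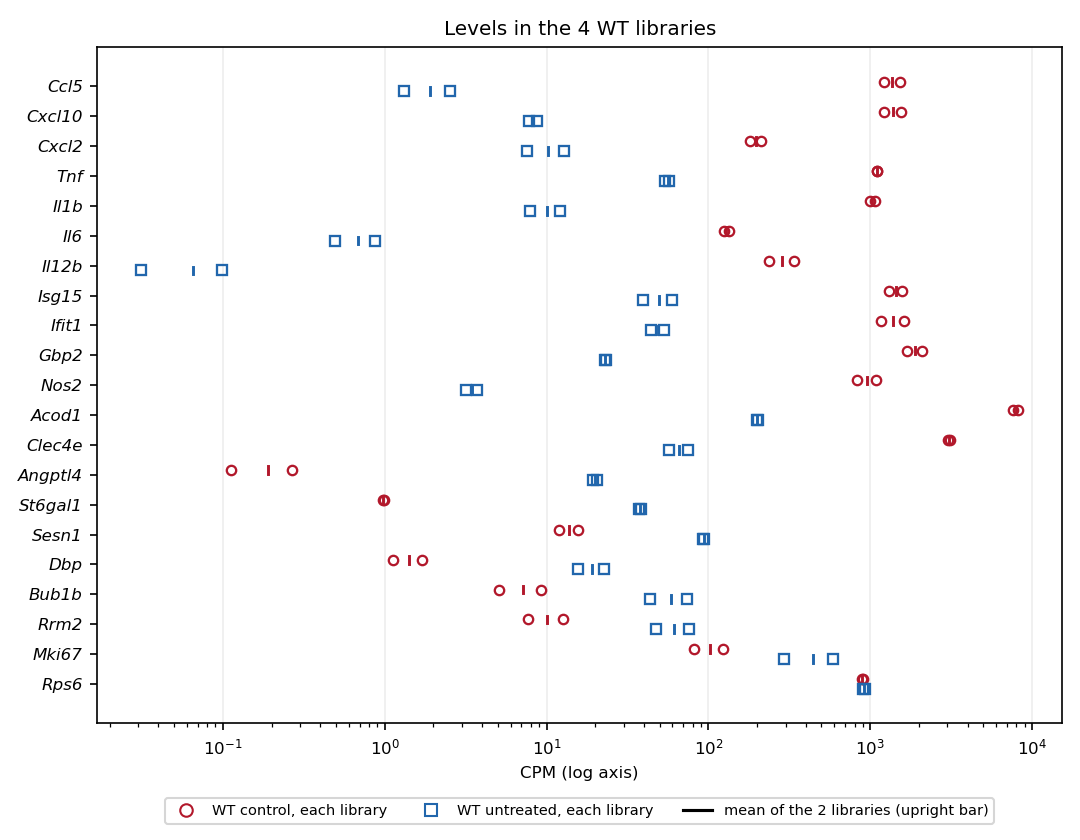
Level in CPM on a log axis of 21 genes, with WT control libraries as circles on the upper line of each gene, WT untreated libraries as squares on the lower line and the mean of the 2 libraries as an upright bar. The groups lie apart for every gene shown except Rps6, a ribosomal protein gene, which had 887 and 899.7 CPM in WT control and 899 and 926 CPM in WT untreated. These genes were chosen with their values known, and the groups lay wholly apart in 40.9% (higher) and 41.3% (lower) of all tested genes.

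Of 31 interleukins, colony-stimulating factors and related cytokines, 24 were tested. Of these, 23 rose and Il16 alone fell (−0.60), with a list median of 3.40, or 2.44 with a pseudocount of 1 CPM. Members near 0 in WT untreated, such as Il12b, could pass the filter only through groups where they are high. Such members could hardly come out as lower, so the count and the median lean to higher. Il1b had 1067 and 999 CPM in WT control and 7.86 and 12.2 CPM in WT untreated (log2 6.71, SE 0.19, limma adjusted p = 2.76e-09). Il6 had 134 and 124 CPM in WT control and 0.877 and 0.496 CPM in WT untreated (log2 7.40). Il12b, the p40 subunit shared by IL-12 and IL-23, was near 0 in WT untreated, so that its size hangs on the pseudocount: 10.77 here and 8.05 with a pseudocount of 1 CPM. Cytokines that act on lymphocytes rose as well, among them Il15 (2.91), Il18 (3.45) and Il27 (5.32), and so did the growth factors of myeloid cells Csf1 (3.73) and Csf3 (7.49). The anti-inflammatory cytokine Il10 had 55.00 and 57.9 CPM in WT control and 11.7 and 9.23 CPM in WT untreated (log2 2.43). Ifnb1, the gene of interferon beta, was called but stayed low, at 0.923 and 1.46 CPM in WT control and 0 and 0.0993 CPM in WT untreated.

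In the TNF superfamily 9 of 13 ligands rose and 2 fell, or 1 without WT untreated replicate 2 (median 1.28). Tnf had 1100.3 and 1104 CPM in WT control and 57.5 and 54.3 CPM in WT untreated (log2 4.30), and Tnfsf10, which encodes the death ligand TRAIL, had 68.3 and 88.4 CPM in WT control and 2.04 and 2.08 CPM in WT untreated (log2 5.17). Of the 19 receptors of the superfamily 9 rose and 8 fell, against 6 higher and 9 lower with totals alone. Cd40, which receives help from T cells, stood out with 283 and 335 CPM in WT control and 7.39 and 9.10 CPM in WT untreated (log2 5.21), and Tnfrsf1b, the second TNF receptor, rose by 2.66 and Tnfrsf1a, the first, by 0.55. Tnfrsf21 (−1.20), Tnfrsf26 (−1.26) and Relt (−1.38) fell. Of 36 growth factors and other secreted mediators 18 rose and 12 fell, against 15 each with totals alone. Edn1, the vasoconstrictor endothelin 1, was at 91.7 and 98.6 CPM in WT control and 0.438 and 0.364 CPM in WT untreated (log2 7.57). Within the VEGF family, Vegfc rose (4.26) while Vegfa (−1.20) and Vegfb (−1.18) fell. Gas6 (−1.48) and Pros1 (−1.21), the bridging ligands by which macrophages bind dying cells, fell together, and Spp1, which encodes osteopontin, did not pass, with 2477 and 2296 CPM in WT control and 2522 and 2164 CPM in WT untreated.

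Of 40 cytokine receptors and JAK kinases, 25 rose, 7 fell (12 with totals alone) and 8 did not pass, with a median of 0.74 beside 3.40 for the interleukins. Il15ra (3.27), which shows IL-15 to other cells, and the kinase Jak2 (2.93) led. The 2 chains of the IL-6 receptor fell, with Il6ra at 38.4 and 40.98 CPM in WT control and 74.3 and 81.1 CPM in WT untreated (log2 −0.97) and Il6st at −1.12. The chains of the interferon gamma receptor split, with Ifngr1 lower (−0.89) and Ifngr2 higher (1.17), while both chains of the type I interferon receptor rose, Ifnar1 by 1.03 and Ifnar2 by 0.74. Among 20 chemoattractant receptors 12 rose and 6 fell (median 1.03), led by Ccrl2, a receptor that binds the attractant chemerin without signalling, with 169 and 208 CPM in WT control and 6.39 and 11.8 CPM in WT untreated (log2 4.42). The receptors for formyl peptides, Fpr1 (2.33) and Fpr2 (2.30), and for complement fragments, C5ar1 (1.42) and C3ar1 (0.95), rose. Ccr2, the receptor by which monocytes follow Ccl2, fell to 43.7 and 49.9 CPM in WT control, against 88.01 and 99.5 CPM in WT untreated, and Ccr1 (−1.53), Cxcr4 (−1.62) and Cxcr3 (−2.16) fell too.

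**Figure D3:**
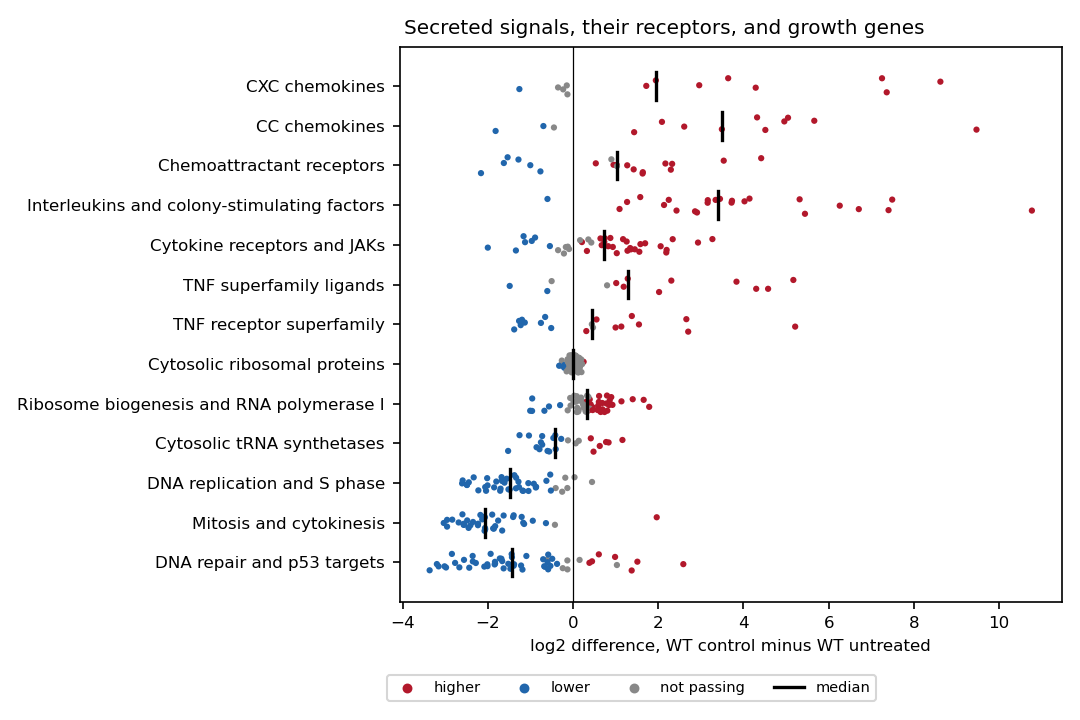
Log2 difference, WT control minus WT untreated, of each tested member of 13 gene lists, with members that passed as higher in red, as lower in blue and those not passing in grey, and the list median as an upright bar. The chemokine and interleukin lists reach further to the right than the lists of their receptors, ribosomal protein genes lie in a narrow band around a median of 0.00 (−0.54 with totals alone), and the replication and mitosis lists lie to the left, with medians of −1.49 and −2.07. Members near 0 in WT untreated could hardly come out as lower, so lists that hold them lean to the right.

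The families of interferon-induced genes rose nearly whole. Of the guanylate-binding proteins, GTPases that coat intracellular microbes, 10 of 11 rose and Gbp8 did not pass (−0.24, called lower with totals alone; list median 4.82). Gbp2 had 1684 and 2083 CPM in WT control and 23.2 and 22.9 CPM in WT untreated (log2 6.34, SE 0.10, limma adjusted p = 1.12e-10). All 16 tested immunity-related GTPases rose (median 3.05), such as Iigp1 with 189 and 259.6 CPM in WT control and 5.01 and 6.22 CPM in WT untreated (log2 5.29). Of the OAS family, which senses double-stranded RNA, 8 of 8 genes rose, led by Oasl1 (5.66). All 20 tested members of the Ifi200 and Schlafen families rose (median 3.21), from Aim2 (0.94) to Ifi205 (8.29). Many members of these families are near-identical copies that share reads (Tgtp1 and Tgtp2, the Oas1 genes, the Ifi200 genes), so the values of single copies are uncertain.

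Of 44 further antiviral genes (the IFIT and IFITM families, the ISG15 pathway, Mx genes, PARPs and others), 41 rose, 0 fell and 3 did not pass (median 2.70), against 39 higher and 3 lower with totals alone. Isg15, a ubiquitin-like modifier, had 1316 and 1574 CPM in WT control and 39.5 and 59.8 CPM in WT untreated (log2 4.89). Ifit1, which binds viral RNA ends, had 1159 and 1614 CPM in WT control and 44.4 and 53.3 CPM in WT untreated (log2 4.81). Rsad2, which encodes viperin, reached 5137 and 7208 CPM in WT control, against 133 and 189 CPM in WT untreated (log2 5.26). The enzymes that attach ISG15, Uba7 (2.12), Ube2l6 (3.31) and Herc6 (3.49), rose together with Usp18 (4.58), which removes it. The IFITM proteins, which block viral entry, were uneven: Ifitm3 rose (1.46) while Ifitm2 (0.04) and Ifitm6 (0.11) did not pass. Of 36 TRIM ubiquitin ligases 14 rose, 9 fell and 13 did not pass, against 13 higher and 20 lower with totals alone. Trim21 (2.24), Trim25 (1.50) and the Trim30 group rose, as with Trim30a (2.17), while Trim37 (−1.94) and Trim59 (−1.58) fell.

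The promoters of Isg15 and Ifit1 are shown because they hold repeated matches to the response element through which STAT and interferon regulatory factor complexes act. They lie at chr4:156200769-156201068 on the minus strand and chr19:34640639-34640938 on the plus strand (RefSeq, GRCm38.p6), with capitals for that element on either strand.
Isg15: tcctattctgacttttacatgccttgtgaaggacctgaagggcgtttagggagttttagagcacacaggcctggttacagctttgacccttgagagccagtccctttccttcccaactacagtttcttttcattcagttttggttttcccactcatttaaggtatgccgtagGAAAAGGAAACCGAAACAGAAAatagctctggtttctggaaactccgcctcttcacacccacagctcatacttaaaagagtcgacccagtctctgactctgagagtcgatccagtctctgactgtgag
Ifit1: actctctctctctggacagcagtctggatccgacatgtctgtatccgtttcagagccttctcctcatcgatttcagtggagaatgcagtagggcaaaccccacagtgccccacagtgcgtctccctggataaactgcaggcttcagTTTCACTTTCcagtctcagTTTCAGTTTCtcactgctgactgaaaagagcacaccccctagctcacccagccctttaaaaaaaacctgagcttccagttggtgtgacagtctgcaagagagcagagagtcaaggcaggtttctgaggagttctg
The Isg15 promoter held 3 such matches, which overlap each other, and the Ifit1 promoter 2 separate ones. Of the 35 genes of the IFIT and related list with a RefSeq promoter, 12 held the motif in at least 1 promoter. Counted by promoter, 29.5% of the 44 promoters of these genes held it, beside 3.44% of all 32851 promoters.

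Genes that present antigen on MHC class I were higher in 22 of 24 cases and lower in 1 (median 1.75), against 18 higher and 3 lower with totals alone. B2m, the light chain of every class I molecule, had 3335 and 3956 CPM in WT control and 1575 and 2081 CPM in WT untreated (log2 1.00). The peptide transporter Tap1 rose by 2.02 and the loading factor Tapbp by 2.24, while Mr1, which presents vitamin metabolites to innate-like T cells, fell to 2.57 and 3.05 CPM in WT control, against 20.95 and 23.7 CPM in WT untreated (log2 −2.95). The class I genes of the H2 region are close copies of each other, and their single values are uncertain. All 7 genes of the immunoproteasome and its activator rose (median 1.79), with Psmb10 at 276 and 372 CPM in WT control and 40.03 and 48.4 CPM in WT untreated (log2 2.86). Of 36 subunits and assembly factors of the constitutive proteasome, 30 rose and 0 fell (median 0.57; highest, the assembly factor Psmd10, at 1.79), but with totals alone 10 were higher and 8 lower, with a median of 0.04. Class II genes split into 8 higher, 6 lower and 1 not passing of 15, against 5 higher and 7 lower with totals alone. Cd74, the class II chaperone, had 29.97 and 46.5 CPM in WT control and 6.11 and 8.17 CPM in WT untreated (log2 2.39), and the peptide editors H2-DMa (−0.82) and H2-DMb1 (−0.87) fell. Of 27 co-stimulatory and checkpoint molecules 20 rose and 5 fell. Cd86, which co-stimulates T cells, rose by 2.56 while its relative Cd80 did not pass (0.12). Cd274, which encodes PD-L1, had 1171 and 1490.0 CPM in WT control and 93.3 and 149 CPM in WT untreated (log2 3.48), and Vsir, which encodes the checkpoint VISTA, had 139 and 154 CPM in WT control and 418 and 516 CPM in WT untreated (log2 −1.67).

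Lists of metabolism held members of both directions, as did all genes tested, of which 33.1% were higher and 32.8% lower. Of 24 genes of arginine, nitric oxide and tetrahydrobiopterin metabolism 11 rose, 5 fell and 8 did not pass, against 8 higher and 12 lower with totals alone. Along the route to nitric oxide, the arginine transporter Slc7a2 had 105 and 89.9 CPM in WT control and 0.564 and 0.993 CPM in WT untreated (log2 6.83). The inducible synthase Nos2 had 831 and 1080.3 CPM in WT control and 3.16 and 3.74 CPM in WT untreated (log2 8.06). Ass1, which remakes arginine from citrulline, had 631 and 697 CPM in WT control and 77.3 and 92.7 CPM in WT untreated (log2 2.97), and Gch1, which starts the synthesis of the cofactor tetrahydrobiopterin, rose by 3.32. These 4 genes rose together, whereas Arg1, the competing arginase, fell (−0.99) and Arg2 rose from a low level (3.10). Of 27 genes of tryptophan, NAD and itaconate metabolism 12 rose and 8 fell, against 7 and 14 with totals alone. Acod1, which makes itaconate, reached 7669.9 and 8209 CPM in WT control, against 199.7 and 202 CPM in WT untreated (log2 5.30). Idh1 (−2.07) and Idh2 (−0.97), which use isocitrate, fell, while citrate synthase Cs (−0.02) and the succinate dehydrogenase subunit Sdha (−0.08) did not pass. Nampt (2.23), which recycles NAD, and the NAD-consuming Cd38 (1.47) rose, and the mitochondrial deacetylase Sirt3 (−2.16) fell.

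Targets of the PPAR receptors, which drive fatty acid uptake and oxidation, fell in 21 of 30 cases and rose in 6 (median −0.59). Angptl4, a secreted inhibitor of lipoprotein lipase, had 0.112 and 0.269 CPM in WT control and 20.4 and 19.4 CPM in WT untreated (log2 −6.16, SE 0.32, limma adjusted p = 1.23e-07), the steepest fall of all 13171 genes, which shrank to −4.13 with a pseudocount of 1 CPM since the gene was near 0 in WT control. The thioesterases Acot1 (−4.24) and Acot2 (−3.91) fell, but they are close copies and may share reads. Plin2, which coats lipid droplets, fell by 0.93, with 604 and 640.0 CPM in WT control and 1177 and 1194 CPM in WT untreated. The members that rose included Gk (3.25) and Acsl1 (3.01), which trap glycerol and fatty acids in the cell, the droplet protein Hilpda (1.65) and the fatty acid carrier Fabp4 (1.30). Among 29 amino acid transporters 11 rose and 12 fell, against 11 and 6 with the deposited scaling. The cystine importer Slc7a11 had 468 and 368 CPM in WT control and 27.9 and 37.5 CPM in WT untreated (log2 3.68), and its partner chain Slc3a2 rose by 1.48. The leucine transporter Slc43a2 (−1.17) and the glutamine transporter Slc38a2 (−0.79) fell. Of 16 transporters of sugars, monocarboxylates and nucleotide sugars 4 rose and 8 fell. Slc2a6 had 354 and 457 CPM in WT control and 13.1 and 14.96 CPM in WT untreated (log2 4.84), while Slc37a2, of the sugar-phosphate family, had 43.6 and 49.4 CPM in WT control and 186 and 169 CPM in WT untreated (log2 −1.93).

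Of 32 genes of iron, zinc and copper handling 18 rose and 8 fell, against 10 and 13 with totals alone. The iron exporter Slc40a1 fell to 68.3 and 66.6 CPM in WT control, against 188 and 257 CPM in WT untreated (log2 −1.70), and the importers Slc11a2 (1.14) and Slc39a14 (2.09) rose. Lcn2, which captures bacterial siderophores, had 1011 and 850.3 CPM in WT control and 81.2 and 89.1 CPM in WT untreated (log2 3.44). Ferritin, the iron store, was among the highest genes per length: its heavy chain Fth1 had 4729.6 CPM per kb of exon in WT control and 3304 in WT untreated, and its light chain Ftl1 had 7929 CPM per kb in WT control and 10095 in WT untreated. Cd163, which takes up haemoglobin, fell by 2.57, and the metal reductase Steap4 rose by 4.98. Of the 13 mitochondrially encoded mRNAs 4 rose, 0 fell and 9 did not pass, against 0 higher and 4 lower with totals alone. The count of 4 higher was 2 without WT control replicate 2 or WT untreated replicate 1 and 7 without WT untreated replicate 2. The mt-Atp8 mRNA, which overlaps mt-Atp6, differed widely between replicates, at 270.0 and 227 CPM in WT control and 40.3 and 216 CPM in WT untreated, and its difference of 1.41 passed only once WT untreated replicate 2 was left out among the libraries left out in turn (2.62, limma adjusted p = 2.17e-05).

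Genes of cell division fell in nearly every case. Of 43 genes of DNA replication and S phase 37 fell, 0 rose and 6 did not pass (median −1.49). Rrm2, the small subunit of ribonucleotide reductase, had 12.6 and 7.68 CPM in WT control and 75.7 and 47.7 CPM in WT untreated (log2 −2.60, SE 0.30, limma adjusted p = 3.36e-05). The helicase subunit Mcm7 had 14.7 and 10.1 CPM in WT control and 72.3 and 45.00 CPM in WT untreated (log2 −2.22). Not every replication gene followed: the sliding clamp Pcna had 245 and 270.2 CPM in WT control and 308 and 276 CPM in WT untreated and did not pass (−0.18), although it did without WT control replicate 2 (limma adjusted p = 0.0492) or WT untreated replicate 2 (limma adjusted p = 0.0281). Tyms, the thymidylate synthase (−0.13), and the licensing factor Cdt1 (0.45) did not pass either. Of 38 genes of mitosis and cytokinesis 36 fell, 1 rose and 1 did not pass (median −2.07). Bub1b, a checkpoint kinase, had 9.20 and 5.11 CPM in WT control and 74.1 and 43.6 CPM in WT untreated (log2 −3.03). Mki67, the proliferation marker, had 123 and 81.2 CPM in WT control and 589 and 294 CPM in WT untreated (log2 −2.06). Plk1 had 5.79 and 3.73 CPM in WT control and 26.1 and 18.9 CPM in WT untreated (log2 −2.23). In Mki67 the WT untreated replicates were wide apart, but both lay above both WT control libraries. Such a gap ran through both lists, with replicate 1 above replicate 2 in each group. The mitosis list summed to 840 and 605 CPM in WT control and 2898 and 1717 CPM in WT untreated. The replication list summed to 999 and 877 CPM in WT control and 2263 and 1658 CPM in WT untreated. The gene that rose was Pttg1, which encodes securin, with 80.7 and 89.8 CPM in WT control and 22.6 and 20.9 CPM in WT untreated (log2 1.96).

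The promoters of Mki67 and Plk1 are shown with TTTGAA in capitals, the cell cycle homology region (CHR) by which late cell cycle genes are held down outside division. They lie at chr7:135716330-135716629 on the minus strand and chr7:122159185-122159484 on the plus strand (RefSeq, GRCm38.p6).
Mki67: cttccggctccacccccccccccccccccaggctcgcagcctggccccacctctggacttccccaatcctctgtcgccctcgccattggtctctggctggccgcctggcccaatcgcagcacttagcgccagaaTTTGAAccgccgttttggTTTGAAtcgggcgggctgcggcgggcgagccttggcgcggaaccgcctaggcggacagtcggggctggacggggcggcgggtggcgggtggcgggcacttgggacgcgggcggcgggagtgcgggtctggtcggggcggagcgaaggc
Plk1: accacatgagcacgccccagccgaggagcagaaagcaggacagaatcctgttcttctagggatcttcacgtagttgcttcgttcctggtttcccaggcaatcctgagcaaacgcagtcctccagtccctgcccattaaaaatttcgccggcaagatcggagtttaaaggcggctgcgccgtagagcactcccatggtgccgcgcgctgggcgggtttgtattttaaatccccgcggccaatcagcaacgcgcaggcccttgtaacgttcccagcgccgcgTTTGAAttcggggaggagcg
Mki67 held 2 matches, at positions −116 and −98 relative to the start site, and Plk1 held 1, after the start site. Among the 32 mitosis genes with a RefSeq promoter 24 held TTTGAA in at least 1 promoter. Of all 32851 promoters 17.9% held it on either strand, and of the 34 promoters of the mitosis genes 76.5% did.

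DNA repair genes and targets of p53 fell in 42 of 55 cases and rose in 7, or 4 with totals alone (median −1.43). Brca2 had 1.48 and 1.02 CPM in WT control and 15.2 and 9.56 CPM in WT untreated (log2 −3.19), and the checkpoint kinase Chek2 fell too (−3.15). The p53 targets did not move as a unit. Sesn1, a stress-induced inhibitor of mTORC1, had 11.97 and 15.6 CPM in WT control and 94.4 and 92.7 CPM in WT untreated (log2 −2.77), and Trp53inp1 fell by 2.35. Cdkn1a, the cell cycle inhibitor p21, had 831 and 1034 CPM in WT control and 408 and 536 CPM in WT untreated (log2 0.99), and Mdm2, which degrades p53, rose by 1.38 and Gadd45b by 2.59. Of 63 histone and DNA modifying enzymes 27 rose and 22 fell, against 11 and 34 with totals alone. The maintenance methyltransferase Dnmt1 (−1.81), its partner Uhrf1 (−2.01) and Ezh2 (−1.67), which are tied to replication, fell, while Hdac1 (1.67), Tet2 (1.73) and Setdb2 (2.12) rose.

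Ribosomal protein genes moved little relative to the median of all genes. Of 81 cytosolic ribosomal protein genes, 77 did not pass, 3 fell and 1 rose, with log2 differences from −0.32 to 0.25 and a median of 0.00. The calls hang on the scaling and on single libraries: totals alone gave 0 higher and 78 lower with a median of −0.54, close to the −0.52 of all genes there, the deposited scaling gave 19 higher and 0 lower, leaving out WT untreated replicate 2 gave 8 higher, and leaving out any of the other WT libraries gave 1 lower. Many of these genes have processed pseudogenes that can share their reads. Of 77 mitochondrial ribosomal protein genes 12 rose, 22 fell and 43 did not pass, against 1 higher and 62 lower with totals alone, 15 higher and 13 lower with the deposited scaling, 7 higher without WT control replicate 1, and 14 lower without WT control replicate 2 or WT untreated replicate 1. Of 61 genes of ribosome assembly and RNA polymerase I 30 rose and 6 fell (median 0.33), against 9 and 20 with totals alone and 19 higher without WT control replicate 1. The processing factors Rcl1 (1.79) and Ddx10 (1.66) led them. Of 23 tRNA synthetases and partners 14 fell and 6 rose, or 2 with totals alone (median −0.42). Mars, the methionine enzyme, had 24.04 and 19.5 CPM in WT control and 67.1 and 57.97 CPM in WT untreated (log2 −1.52), while Wars, the tryptophan enzyme, which interferon induces, rose (0.78). In the MYC and MAX network 6 of 11 genes rose and 3 fell, against 4 and 6 with totals alone. Myc rose by 1.18, and its antagonist Mxd1 had 279.8 and 407 CPM in WT control and 22.1 and 28.5 CPM in WT untreated (log2 3.74).

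Transcription factors of the macrophage lineage and the Krüppel-like family rose in 24 of 43 cases and fell in 10, against 18 and 17 with totals alone. Spi1, which encodes the lineage factor PU.1, had 584 and 679.5 CPM in WT control and 257 and 296 CPM in WT untreated (log2 1.19). Cebpa (−2.02), another lineage factor, fell. The immediate early gene Egr1 rose by 4.02 and Klf6 by 1.98. Of 28 nuclear receptors and cofactors 7 rose (25.0%) and 11 fell (39.3%), beside 33.1% and 32.8% of all genes tested. The NR4A orphan receptors rose, as with Nr4a1 (2.89), as did the oxysterol receptor Nr1h3 (LXR alpha, 1.97), and its partner Rxra (−1.69), the lipid receptor Pparg (−1.55) and the retinoic acid receptor Rara (−0.92) fell. Rxra, the shared partner of many of these receptors, had 28.7 and 32.2 CPM in WT control and 89.7 and 108 CPM in WT untreated. Of 18 circadian clock genes 6 rose and 9 fell (median −0.45). The output factor Dbp had 1.12 and 1.70 CPM in WT control and 15.6 and 22.5 CPM in WT untreated (log2 −3.67), Tef (−2.05), Per3 (−2.25) and Per2 (−1.50) fell with it, and Cry1 (1.92) and Per1 (1.01) rose. Time of collection is not given in the labels, and its part in the clock values was not tested.

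At the cell surface, 14 of 23 C-type lectin receptors rose and 4 fell, or 7 without WT untreated replicate 1 and 8 with totals alone (median 1.02). Clec4e, which encodes Mincle, a receptor for mycobacterial glycolipid, had 3042 and 3101 CPM in WT control and 57.5 and 75.04 CPM in WT untreated (log2 5.54). Mrc1, the mannose receptor, fell to 158 and 154 CPM in WT control, against 511 and 467 CPM in WT untreated (log2 −1.64), and Clec10a fell by 2.21. Of 34 Fc receptors and their signalling partners 19 rose and 8 fell, or 15 with totals alone. The inhibitory receptor Fcgr2b (3.08) and the activating receptors Fcgr1 (2.19) and Fcgr4 (1.70) rose, while Fcgr3 fell (−0.38). Trem1, an amplifier of inflammation, rose by 3.88 and its relative Trem2 fell by 0.66. Scavenger receptors and genes of dying-cell uptake split into 11 higher and 13 lower of 34, against 7 and 24 with totals alone and 12 each with the deposited scaling. The main counts, 32.4% higher and 38.2% lower, lay near the 33.1% and 32.8% of all genes tested. Mertk, which takes up dying cells through Gas6 and Pros1, fell with these ligands (−0.90), whereas its relative Axl had 349 and 469 CPM in WT control and 62.3 and 91.8 CPM in WT untreated (log2 2.42). Marco had 8503 and 8505 CPM in WT control and 4546 and 4678 CPM in WT untreated (log2 0.88).

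Complement genes rose in 11 of 22 cases and fell in 5, against 5 higher and 11 lower with totals alone, 6 higher without WT control replicate 2 or WT untreated replicate 1, and 3 lower without WT control replicate 1 or WT untreated replicate 2. C3, the central component, had 3379 and 3986 CPM in WT control and 599 and 649.7 CPM in WT untreated (log2 2.56), and Cfb, its partner in the alternative pathway, rose by 5.63, with 456 and 627 CPM in WT control and 6.67 and 17.2 CPM in WT untreated. C1qa (−0.01) and C1qc (−0.12) did not pass. Of 41 integrins and adhesion molecules 21 rose and 8 fell, against 16 each with totals alone. The fibronectin receptor chain Itga5 had 962 and 1043 CPM in WT control and 121 and 118 CPM in WT untreated (log2 3.06), Icam1 rose by 2.88, and the laminin receptor chain Itga6 had 45.5 and 44.2 CPM in WT control and 276 and 263 CPM in WT untreated (log2 −2.58). Of 40 matrix proteases, coagulation factors and inhibitors 22 rose and 10 fell (median 0.75). Mmp13, a collagenase, had 1303 and 1219 CPM in WT control and 22.4 and 20.8 CPM in WT untreated (log2 5.86). The membrane-bound Mmp14 rose by 2.92 and the plasminogen activator inhibitor Serpinb2 by 6.27, while Mmp9 (−0.09) and Mmp8 (−0.10) did not pass.

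The receptors for lipids, metabolites and peptides split into 25 higher and 24 lower of 54, against 16 and 27 with totals alone. Gpr84, a receptor for medium-chain fatty acids, had 519.8 and 474 CPM in WT control and 9.58 and 5.33 CPM in WT untreated (log2 6.10), and Hcar2, a receptor for hydroxybutyrate and niacin, rose by 4.88. S1pr1, which guides exit from tissue along sphingosine phosphate, had 3.16 and 2.18 CPM in WT control and 23.4 and 24.4 CPM in WT untreated (log2 −3.14), and the cannabinoid receptor Cnr2 (−2.89) and the prostaglandin receptors Ptger2 (−1.25) and Ptger3 (−2.53) fell. Of 27 purinergic genes 11 rose (40.7%) and 10 fell (37.0%), against 10 and 14 with totals alone. The adenosine receptors Adora2a (4.16) and Adora2b (3.88) rose, while P2rx7, the ATP channel that triggers the inflammasome, had 34.5 and 43.04 CPM in WT control and 92.6 and 98.8 CPM in WT untreated (log2 −1.31), and Entpd1, which breaks down ATP outside cells, fell (−1.61). Of 28 Siglecs and enzymes of sialic acid 10 rose (35.7%) and 13 fell (46.4%), beside 33.1% and 32.8% of all genes tested (list median −0.51). St6gal1, which adds sialic acid in the 2,6 linkage, had 0.979 and 0.986 CPM in WT control and 38.4 and 37.3 CPM in WT untreated (log2 −5.13, SE 0.12, limma adjusted p = 6.76e-10). Enzymes that make and activate the sugar, Gne (−1.38), Nans (−1.01) and Cmas (−1.23), fell with it, and St3gal1 (2.11) and St3gal5 (1.64), which build the other linkage, rose.

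Among caspases, necroptosis genes and inhibitors of apoptosis 20 of 32 rose and 7 fell (median 0.61), against 13 and 10 with totals alone. Nlrp3, the inflammasome sensor, had 627 and 608 CPM in WT control and 48.01 and 39.2 CPM in WT untreated (log2 3.83), and Casp4 (2.89), Casp1 (2.05) and Mlkl (2.80), the effector of necroptosis, rose. The inflammasome adaptor Pycard fell (−0.58), and the necroptosis kinases Ripk1 (−0.03) and Ripk3 (−0.04) did not pass. In the BCL2 family 9 of 20 rose and 6 fell, against 7 and 10 with totals alone and 3 lower without WT control replicate 1. The protective Bcl2a1 copies rose, as with Bcl2a1d (4.35), although these copies are near-identical and their single values are uncertain, and the death-promoting Bmf (−2.67) and Bcl2l11 (−0.71) fell. Of 52 cathepsins and lysosomal hydrolases 12 rose, 17 fell and 23 did not pass, against 7 higher and 39 lower with totals alone, 14 higher and 10 lower with the deposited scaling and 10 lower without WT control replicate 1. Ctsc, which activates serine proteases, had 2389 and 2368 CPM in WT control and 553 and 492 CPM in WT untreated (log2 2.19), Lipa, the acid lipase, fell by 1.23, and the abundant Ctsb (0.06), Ctsd (−0.23) and Lyz2 (−0.12) did not pass.

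**Figure D4:**
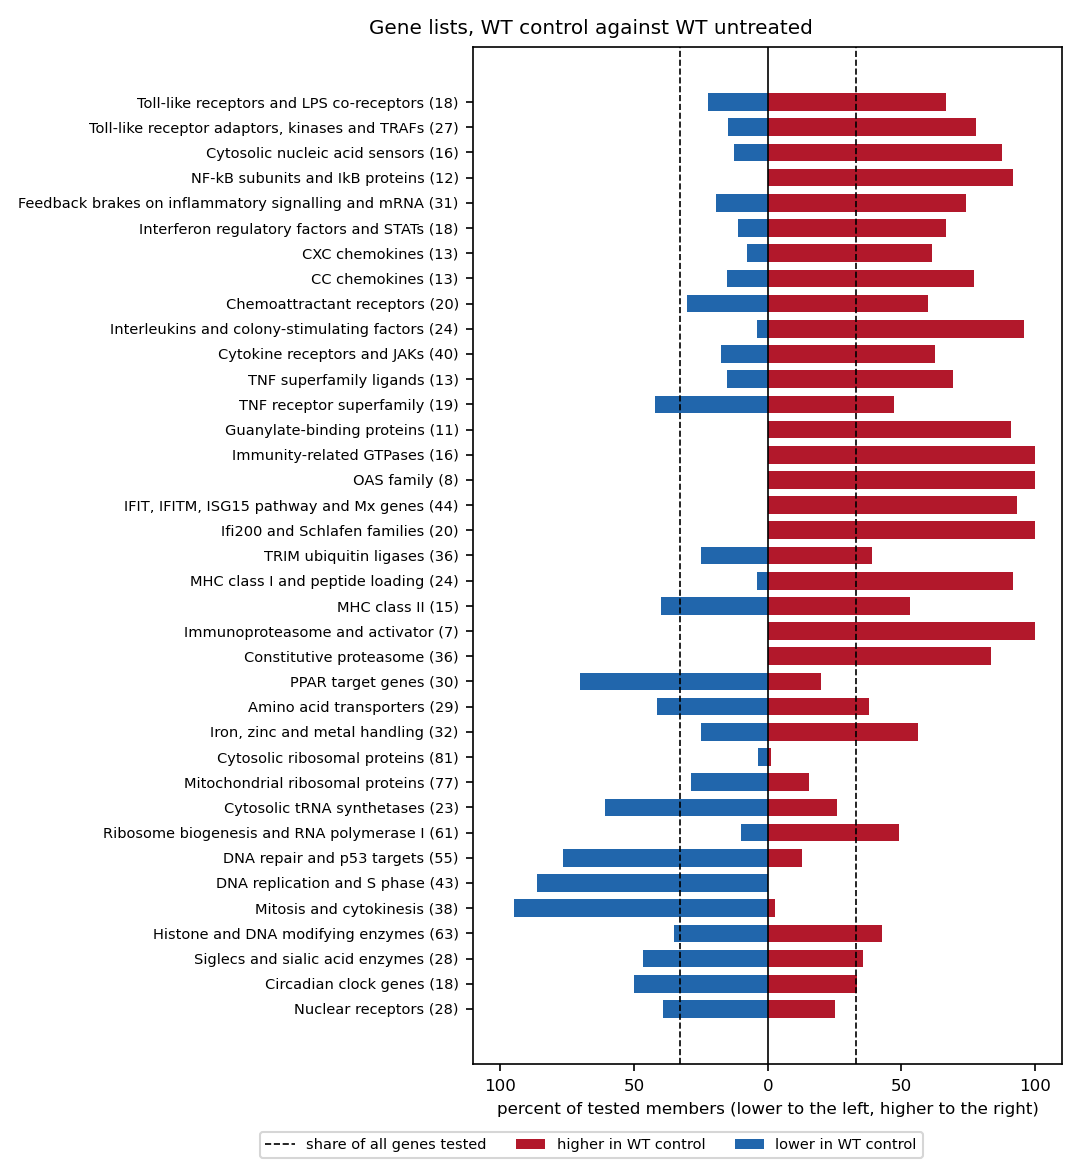
Share in percent of the tested members of 37 gene lists that passed as higher (red bars to the right) or lower (blue bars to the left) in WT control, with the number of tested members in brackets and dashed lines at the shares of all 13171 genes, 33.1% higher and 32.8% lower. The immunity-related GTPases, the OAS family, the Ifi200 and Schlafen families and the immunoproteasome fill the right side, the mitosis and replication lists reach furthest to the left, and the cytosolic ribosomal proteins show hardly any bar (78 of 81 lower with totals alone).

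Markers of other cells that a marrow culture can hold were checked for the whole of each list. The 13 macrophage markers summed to 29381 and 28390.1 CPM in WT control and 26321 and 24835 CPM in WT untreated, 7 of them higher, 2 lower and 4 not passing, against 4 higher and 7 lower with totals alone. Neutrophil markers summed to 1829 and 1822 CPM in WT control and 580.4 and 662 CPM in WT untreated, with 8 of 15 tested genes higher and 0 lower (6 and 2 with totals alone). Lcn2, described above, made up 1011 and 850.3 CPM of the WT control sums. It was not alone in rising: the tested members had a median log2 difference of 1.03, and 53.3% were higher, beside 33.1% of all genes. The granule gene Mpo, which defines neutrophil precursors, had 1.06 and 1.82 CPM in WT control and 1.22 and 2.32 CPM in WT untreated and did not pass, and Ly6g, of mature neutrophils, was under 0.1 CPM in all 4 libraries. Dendritic cell markers summed to 676 and 904 CPM in WT control and 212 and 324 CPM in WT untreated, with 6 of 11 higher and 1 lower. Most of that sum was Bst2, which is also on the list of antiviral genes, and Zbtb46, a factor of classical dendritic cells, had 0.336 and 0.239 CPM in WT control and 0.407 and 0.298 CPM in WT untreated. The part of these cells in the results above was not tested. Hspa1b, an inducible heat-shock gene, rose steeply but was uneven between replicates of WT control, with 46.2 and 104 CPM in WT control and 0.877 and 1.09 CPM in WT untreated (log2 6.01).

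Of 19 markers of B, T, NK and plasma cells, 8 were listed at 0 in all 4 WT libraries, Cd3e, Cd8a and Ncr1 among them, and 4 were tested, of which Sdc1 alone rose (1.34; 2 rose without WT control replicate 1) and Cd79b (−2.18) and Ighm (−1.08) fell. Of 12 mast cell and basophil markers, 8 were at 0 in all 4 libraries, Cpa3 and Fcer1a among them, and the 3 tested rose. The WT control sum was nearly all Hdc, the histamine-forming enzyme, at 30.6 and 35.2 CPM in WT control and 0.188 and 0.331 CPM in WT untreated. Markers this low in WT untreated could hardly come out as lower. Stromal and endothelial markers summed to 77.03 and 107 CPM in WT control and 36.02 and 50.1 CPM in WT untreated, with 6 of 14 higher and 0 lower, or 1 lower with totals alone and without WT control replicate 2 or WT untreated replicate 1. Col1a1 (0.25) and Col1a2 (0.01), the collagens of fibroblasts, did not pass. They do not stand for the list, whose median log2 difference was 0.39 and whose highest was 5.32. The members that rose are not named here. Of 5 tested erythroid, platelet and progenitor markers 1 rose and 1 fell, or 0 without WT untreated replicate 1 and 3 with totals alone, and of 7 osteoclast markers 1 rose and 3 fell, or 6 with totals alone, among them Nfatc1 (−1.29), the master factor of osteoclasts.

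The same medium was given to cells labelled KO, and the test of the difference between the 2 responses asks whether WT cells responded otherwise. The WT response exceeded the KO response in 3121 of 13171 genes (23.7%) and lay below it in 2904 (22.0%), 6025 in all (45.7%), at a limma adjusted p under 0.05. With totals alone 1695 genes lay above and 6518 below, and with the deposited scaling 3819 and 2060. The 2 responses share no library. All 16 tested immunity-related GTPases, all 20 Ifi200 and Schlafen genes and all 7 immunoproteasome genes had the larger response in WT. Their median differences were 3.05, 3.21 and 1.79 in WT and 0.59, 0.39 and 0.14 in KO. For Irf7 the WT response was 4.35 and the KO response 0.74 (difference 3.61, SE 0.29, limma adjusted p = 6.65e-06). Of the 38 mitosis genes 34 lay lower in WT, with a median of −2.07 in WT and −0.21 in KO, and of the 43 replication genes 29 did, with medians of −1.49 and −0.22. For Rrm2 the WT response was −2.60 and the KO response −0.38 (difference −2.22, SE 0.43, limma adjusted p = 0.00201).

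Some lists had like medians in both genotypes. The PPAR targets had a median of −0.59 in WT and −0.47 in KO. Of 30 members, 8 lay above and 9 below the KO response, beside 23.7% and 22.0% of all genes tested. Like medians therefore do not mean that the members of this list responded alike. Angptl4 fell by 6.16 in WT and by 3.92 in KO (difference −2.24, SE 0.46, limma adjusted p = 0.00295), with 1.32 and 1.33 CPM in KO control and 19.9 and 23.3 CPM in KO untreated. Plin2 fell by 0.93 in WT, with a KO difference of −2.16 (limma adjusted p of the difference = 1.68e-05). Ribosome assembly genes had medians of 0.33 in WT and 0.44 in KO, with 6 of 61 above and 6 below. Of the 13 mitochondrially encoded mRNAs 0 differed between the responses, and of the 81 cytosolic ribosomal protein genes 1 did.

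The response of KO-labelled cells to Poly(I:C), measured against KO untreated, shares no library with the WT response to the control medium, and the responses differ in agent, genotype label and perhaps time. They differed in 1281 genes (9.73%), with the WT response higher in 537 (4.08%) and lower in 744 (5.65%). This count depends on single libraries: it was 428 without WT control replicate 1, 559 and 823 without KO PolyIC replicates 2 and 1, and 650 and 702 without KO untreated replicates 2 and 1. With totals alone it was 2467, of which 1962 were higher and 505 lower, with median of ratios 410 were higher and 846 lower, with the deposited scaling 307 and 762, with rlog values 417 and 937, and with the replicate block 1929. The interferon families held many of the genes with the smaller response in WT: 10 of 11 guanylate-binding proteins, 7 of 8 OAS genes and 33 of 44 IFIT and related genes. Ifnb1 was at 0.923 and 1.46 CPM in WT control and 0 and 0.0993 CPM in WT untreated, and at 33.2 and 29.3 CPM in KO PolyIC and listed at 0 in both KO untreated libraries. Cxcl10 differed by 7.36 in WT control and by 10.14 in KO PolyIC (difference of responses −2.78, limma adjusted p = 0.00103). Gbp4 (−2.64), Cmpk2 (−2.43) and Ccl7 (−2.32) differed the same way.

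On the other side stood genes that fell less in WT control than in KO PolyIC, or rose more. Engase, a cytosolic glycosidase, differed by −3.74 in WT and −5.80 in KO PolyIC (difference 2.06), and Lpin1, a phosphatidate phosphatase, by −3.79 and −5.52 (difference 1.73). Cxcl3, a neutrophil attractant, had 31.6 and 30.8 CPM in WT control and 2.79 and 5.49 CPM in WT untreated, and 8.52 and 6.16 CPM in KO PolyIC and 3.24 and 2.79 CPM in KO untreated (difference 1.72, SE 0.39, limma adjusted p = 0.0257). Scd2, a fatty acid desaturase, had 47.3 and 44.6 CPM in WT control and 60.2 and 96.5 CPM in WT untreated, and 14.1 and 12.6 CPM in KO PolyIC and 60.4 and 71.6 CPM in KO untreated (difference 1.56, limma adjusted p = 0.00762). Of the lists of cell division, 1 of 38 mitosis genes and 4 of 43 replication genes passed, all lower in WT, beside 9.73% of all genes tested, with medians of −2.07 and −1.49 in WT control and −2.01 and −1.43 in KO PolyIC. A count of this size does not show that the responses are alike.

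**Figure D5:**
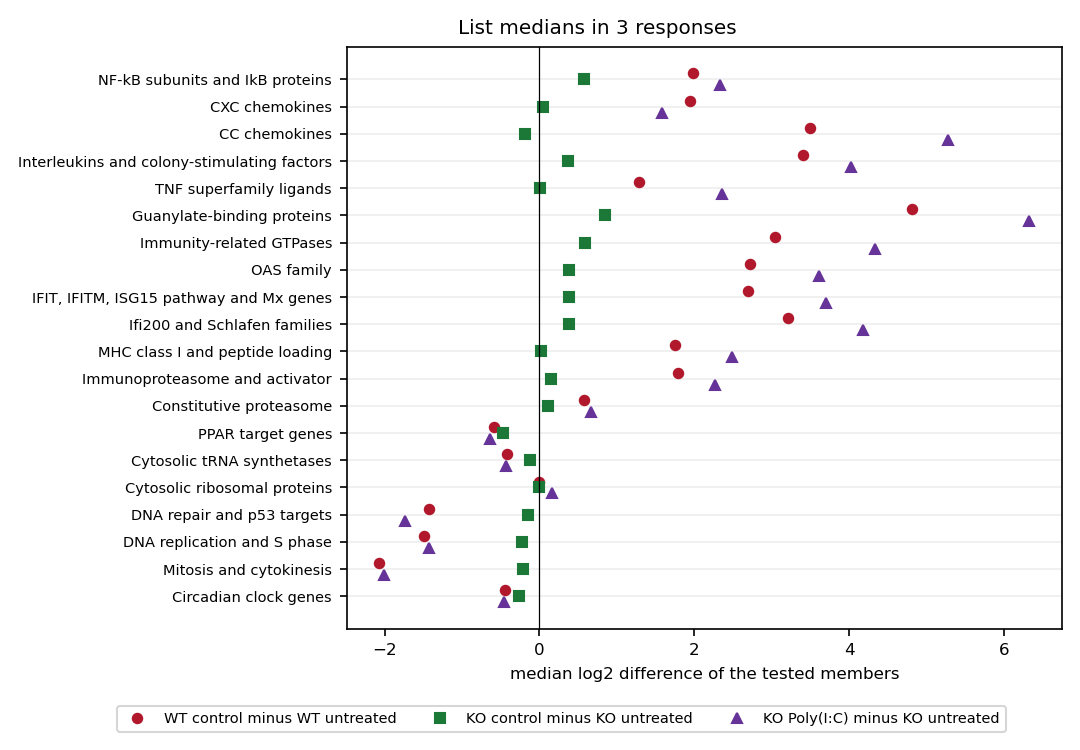
Median log2 difference of the tested members of 20 gene lists for WT control minus WT untreated (red circles), KO control minus KO untreated (green squares) and KO PolyIC minus KO untreated (purple triangles); the last pair share the KO untreated libraries. The red circles lie between the green squares and the purple triangles for the interferon families, such as 4.82, 0.85 and 6.33 for the guanylate-binding proteins, and beside the purple triangles for mitosis, at −2.07, −0.21 and −2.01.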

How the data were processed

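RNA of 10 samples was prepared with the Qiagen RNeasy kit and the TruSeq Stranded mRNA kit (polyA-selected, strand-specific libraries), per the labels' protocols. Tools listed in the submitters' processing notes, without roles, are STAR 2.4.0d, Trim Galore 0.2.8, RSEM 1.2.12 and DESeq2. Which genome build they used is not given in the sources used. The first table the authors deposited holds 1 signal value per Ensembl gene and library (45318 identifiers), as whole numbers: in 6 libraries, WT control replicate 1 and WT untreated replicate 1 among them, from 6 to 24 of the whole numbers from 1 to 50 never occur, and in 4, the other WT libraries among them, none is missing. The table was therefore not taken as raw counts, read depth is unknown and no count model was run. The second deposited table holds rlog values, on a log2 scale, of 19209 genes.

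Values were divided by the library total times a TMM factor (trims of 30% and 5%), which was 0.853 and 0.814 for WT control and 1.23 and 1.19 for WT untreated. Genes at 10 or more in at least 2 libraries were kept, leaving 13171 of 20687 genes above 0. A gene near 0 in WT untreated could pass only through other groups, and then could hardly come out as lower. limma 3.58.1 in R 4.3.3 was fitted with a trend to log2(CPM + 0.1) of all 10 libraries, with 1 coefficient per group, 5 residual and 4.82 prior degrees of freedom, and Benjamini-Hochberg adjustment over all genes tested. The steps were tested on simulated data in which few genes changed, evenly up and down. Broad change like that seen here was not simulated, so this does not check the scaling for these data. Responses were compared as contrasts in the same fit, with no covariate. Gene symbols and exon lengths came from the GENCODE annotation of GRCm38, which named 44671 of the identifiers, and identifiers without a symbol held at most 0.114% of a total. Promoters came from RefSeq (GRCm38.p6) and were searched on both strands.

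Alternatives were other scalings (totals alone, median of ratios, the deposited values), pseudocounts of 0.5 and 1 CPM, no filter, only the compared groups, a replicate block, the rlog table and each library left out in turn. Genes were named by rule: most of the 20 steepest called genes each way above 10 CPM outside predicted models, leading, defining and not passing members of 66 gene lists, the 5 steepest differences each way between the WT and KO responses to the medium, Tlr4, and genes with wide gaps between replicates. Genes named from the comparison with KO Poly(I:C) were picked from the steep end and do not hold all of the 5 steepest each way. Further list members were named after their values were seen, and a few members counted in the lists are not reported here. Members and lists were chosen with earlier results of these data known.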

Additional observations from a re-analysis of the deposited data

Results flagged for a closer look

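The responses of WT and KO-labelled cells to the same medium differed by the test of the difference itself in 6025 genes, 3121 with the larger and 2904 with the smaller value in WT. Il12b had 338 and 235 CPM in WT control and 0.0313 and 0.0993 CPM in WT untreated, against 0.396 and 0.324 CPM in KO control and 0.196 and 0.227 CPM in KO untreated, and its WT response minus its KO response was 10.21 (SE 0.33, limma adjusted p = 4.13e-08), a size that depends on the pseudocount. Ccl5 had 3.24 and 3.02 CPM in KO control and 1.67 and 1.46 CPM in KO untreated, far under the WT control libraries, and its difference of responses was 8.51 (SE 0.33, limma adjusted p = 9.64e-08). The same difference was 7.25 for the cytokine Il1a, 7.13 for the T cell attractant Cxcl9 and 7.07 for Nos2, whose levels were 3.63 and 2.56 CPM in KO control and 1.54 and 1.43 CPM in KO untreated.

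In the other direction, Pald1 had 1.45 and 1.64 CPM in WT control and 8.68 and 6.05 CPM in WT untreated, against 32.4 and 32.4 CPM in KO control and 9.13 and 7.36 CPM in KO untreated, a difference of responses of −4.13 (SE 0.31, limma adjusted p = 4.54e-06). St6gal1 had 17.6 and 19.3 CPM in KO control and 40.3 and 45.3 CPM in KO untreated, and its difference of responses was −3.92 (SE 0.16, limma adjusted p = 1.72e-07). The difference was −3.87 for Gpr155, −3.50 for Sesn1 and −3.48 for Rnf150.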

How the results depend on the processing

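The counts of genes higher and lower in WT control kept within 1.5 times of 4357 and 4315 under every alternative run except totals alone, which gave 2267 higher and 7689 lower, with 311 genes called the other way. With each library left out in turn they ran from 3807 to 4106 higher and from 3721 to 3897 lower. The count of responses that differ between WT and KO stayed within 1.5 times of 6025, from 4916 to 5819 with libraries left out in turn. The count against the KO Poly(I:C) response moved from 1281 to 2467 with totals alone and to 1929 with the replicate block, and ran from 428 to 1140 with libraries left out in turn. The labels give replicates 1 and 2 in each group but no shared batch. Deviations of same-numbered libraries correlated at 0.315 between the WT groups and from 0.171 to 0.306 between KO groups. Across genotypes the same correlation ran from 0.013 to 0.111. The block (4549 higher and 4478 lower) fits 1 shift common to all groups. It therefore does not model a pairing within a genotype and is given as a hint from the data only. With totals alone, 7 genes named above as not passing turned to called and lower: Cd80 (−0.41), Ctsb (−0.47), Hsp90b1 (−0.45), Ifitm2 (−0.49), Ifitm6 (−0.42), Map3k7 (−0.51) and Stat6 (−0.41). Another 14 that had not passed were called there with the sign unchanged. Of the named genes that passed, Irak4 lost its call with the deposited scaling, Tnfrsf1a with totals alone, and Ppbp with only the compared groups and as given above. Of 1584 list counts recomputed, 1482 stayed within 1.5 times and 102 did not, 52 of these under totals alone, where most other genes moved down too. Count models on recovered reads were not run, since whole reads could not be recovered from the rounded values. Read depth behind the values is unknown, so no counting interval is given, and 2 libraries per group limit the precision.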
